A study of Mus musculus with 3 samples.

Results

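Marginal zone B cells are the splenic B lymphocytes that sit at the border between the white and the red pulp and survey the blood. This account covers 9 genes that mark these cells or make them, namely Cr2, Cd1d1, Cd9, Dtx1, S1pr3, Notch2, Myof, Asb2 and Tm6sf1, which were chosen by gene symbol and were all found among the 27088 genes of the deposited table. RNA of B cells, sorted by flow cytometry from the spleens of female BALB/c mice that the labels give as 13 weeks old, was sequenced after removal of ribosomal RNA. The series has 3 libraries, 1 each for the Control, PBS and SJMHE1 groups, and in each group the samples of 3 mice were mixed. Control mice were healthy. Mice of the PBS and SJMHE1 groups, 6 weeks old at the start, were sensitized intraperitoneally on days 0, 7 and 14 with 10 μg ovalbumin (OVA), given with 2 mg aluminum hydroxide. They were then challenged through the nose with 100 μg OVA from day 21 to day 27 and from day 29 to day 35, a model of allergic rhinitis. On days 0, 14 and 28 the PBS group was injected under the skin with phosphate-buffered saline, while the SJMHE1 group was injected with 10 μg of SJMHE1, a peptide from a heat shock protein of the parasitic worm Schistosoma japonicum, in incomplete Freund's adjuvant. The peptide and this adjuvant cannot be told apart in these groups. The spleens were taken on day 36. An age of 6 weeks at the start and 36 days of protocol fall short of the 13 weeks in the labels. The difference is unexplained here. The Control library was not analysed here, and the values below are those of the PBS and SJMHE1 libraries.

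Marginal zone B cells arise when a newly formed B cell receives a signal through the receptor Notch2 from ligands on splenic stromal cells. Proteases then release the intracellular part of the receptor, which joins the DNA-binding protein RBPJ and its Mastermind-like coactivators to switch on target genes such as Dtx1. The cells carry much CD21, the complement receptor encoded by Cr2, and much CD1d, which presents lipids to NKT cells, and they are held in the marginal zone by receptors for sphingosine-1-phosphate. The CD1d-high fraction of splenic B cells also holds many of the B cells that make IL-10.

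Promoter sequences are shown for 4 members, namely the 3 whose promoter holds the core letters bound by RBPJ and Dtx1, the classical Notch target. They come from RefSeq on GRCm38.p6 and run 5′ to 3′ on the strand of the gene, with the letters TGGGAA in capitals. Each spans 250 bases before to 50 bases after the start of the gene in RefSeq. That start can differ from the gene coordinates given further below. The Dtx1 window lies wholly inside the coordinates given for Dtx1, so by those it holds no bases before the gene.
Cr2 (chr1:195176670-195176969, minus strand): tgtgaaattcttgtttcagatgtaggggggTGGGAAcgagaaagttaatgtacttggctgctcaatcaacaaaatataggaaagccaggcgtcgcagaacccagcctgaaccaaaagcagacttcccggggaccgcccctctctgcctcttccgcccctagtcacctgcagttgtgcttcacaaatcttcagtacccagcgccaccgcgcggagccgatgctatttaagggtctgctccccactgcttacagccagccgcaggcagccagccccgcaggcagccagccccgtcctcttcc
S1pr3 (chr13:51408368-51408667, plus strand): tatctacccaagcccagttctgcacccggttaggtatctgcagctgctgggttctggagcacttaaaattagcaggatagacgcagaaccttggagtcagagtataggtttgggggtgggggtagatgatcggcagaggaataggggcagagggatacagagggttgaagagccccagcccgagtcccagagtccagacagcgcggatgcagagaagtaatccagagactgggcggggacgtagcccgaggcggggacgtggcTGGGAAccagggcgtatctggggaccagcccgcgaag
Cd9 (chr6:125494711-125495010, minus strand): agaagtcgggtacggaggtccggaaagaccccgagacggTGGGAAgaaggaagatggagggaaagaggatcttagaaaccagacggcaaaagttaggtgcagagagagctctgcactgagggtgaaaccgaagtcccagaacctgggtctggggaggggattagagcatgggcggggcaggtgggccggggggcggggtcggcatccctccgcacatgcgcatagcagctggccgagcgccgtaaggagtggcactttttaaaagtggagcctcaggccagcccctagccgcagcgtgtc
Dtx1 (chr5:120711620-120711919, minus strand): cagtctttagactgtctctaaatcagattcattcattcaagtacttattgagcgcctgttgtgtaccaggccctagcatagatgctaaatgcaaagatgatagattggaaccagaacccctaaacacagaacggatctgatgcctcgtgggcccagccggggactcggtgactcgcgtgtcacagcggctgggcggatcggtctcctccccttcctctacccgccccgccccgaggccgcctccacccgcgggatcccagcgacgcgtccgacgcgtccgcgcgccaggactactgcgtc

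The letters TGGGAA were searched on both strands in the promoters of the 7 members that had one. They were found in Cr2, at base 31 of 300, in Cd9, at base 40, and in S1pr3, at base 264. In S1pr3 this lies behind the RefSeq start but before 51408639, where the gene coordinates given below begin. The letters were not found in the promoters of Dtx1, Notch2 and Myof or in the 2 promoters of Asb2, as RefSeq places them. Of all 32851 promoters of this length, 25.6% hold these letters, and counted by gene the share is 28.3%, so that 3 of 7 members is a description of these windows.

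Levels are given as FPKM, fragments for each kilobase of gene, scaled to the mapped fragments of the library, as the authors deposited them. FPKM is scaled by length, so that levels of different genes can be set beside each other. Sequence shared with other genes, as given below for Tm6sf1 and Cd1d1, can still shift a level. The libraries held 48267168 counts for PBS and 51280237 counts for SJMHE1. With 1 pooled library for each group there was no spread between replicates and no test, so each difference is a description of 2 libraries. The interval given with a value is an exact 95% interval from the read counts, Clopper-Pearson for a ratio and Poisson for a level. Such intervals cover counting error only, since reads without molecular identifiers are not independent molecules and mice within a pool are not seen. In pooled RNA of this kind, fewer cells of a type and less RNA in each cell cannot be told apart.

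Of the 9 genes, Cr2, S1pr3 and Tm6sf1 were the furthest above the PBS level in the SJMHE1 library, with log2 FPKM ratios of 0.68, 0.59 and 0.46. Asb2, Notch2 and Cd1d1 lay between 0.14 and 0.21. Dtx1 was level, with a ratio of -0.01, and Myof and Cd9 were lower, with ratios of -0.16 and -0.35. In neither library was any of the 9 genes under an FPKM of 1. None of the 9 passed a log2 ratio of 1 in either direction, while 6.0% of the 12433 genes compared passed it. That share depends on the genes compared. It was 2.63% of the 9900 protein-coding genes, the class of all 9 members, and 2.22% of the 11366 genes with 1 FPKM or more in each library. By direction, 2.43% of all genes were above 1 and 3.57% were below -1. A log2 ratio past 0.5 in either direction was reached by 2 of 9 members and by 17.1% of all genes. Both members, Cr2 and S1pr3, were above 0.5, where 7.28% of all genes lay, and none was below -0.5, where 9.82% lay. Among protein-coding genes these shares were 4.27% and 6.52%.

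**Figure D1:**
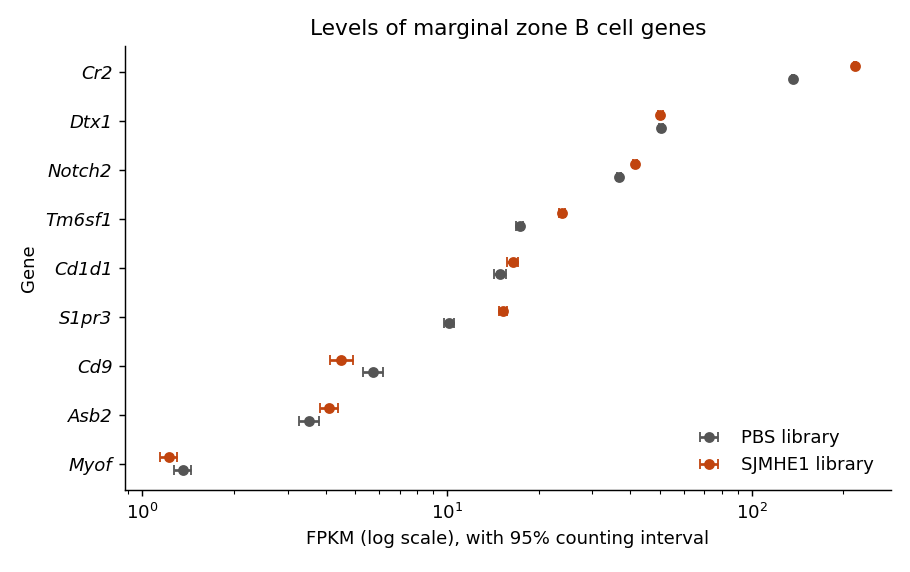
FPKM (log scale) of the 9 genes in the PBS library (grey) and the SJMHE1 library (orange), 1 pooled library each, with bars for the 95% Poisson counting interval. Cr2 lies at 136 and 218, well above all others, the Dtx1 points lie on each other at 50.5 and 50.2, and Cd9 and Myof are further left in the SJMHE1 library.

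The order of the levels was the same in both libraries. Cr2 was the most abundant member, followed by Dtx1, Notch2, Tm6sf1, Cd1d1, S1pr3, Cd9, Asb2 and Myof. In the PBS library the counting intervals of neighbours in this order did not overlap. In the SJMHE1 library they overlapped for 1 pair, Cd9 at an FPKM of 4.50 and Asb2 at 4.09, and the levels of Cd1d1 and S1pr3, 16.4 and 15.3, were just apart. The summed FPKM of the 9 genes was 277 in PBS and 375 in SJMHE1. Cr2 alone held 49.3% of the sum in PBS and 58.2% in SJMHE1, and without Cr2 the sums were 140 and 157, which is a log2 ratio of 0.16.

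Cr2 (ENSMUSG00000026616) encodes the complement receptor CD21 and, by alternative splicing in the mouse, also CD35. It lies on chromosome 1, minus strand, from 195136811 to 195176716 on mm10, the build of the deposited coordinates, and has 6 protein-coding transcripts of up to 25 exons in GENCODE M21. Its FPKM was 136, with an interval from 135 to 137, in PBS and 218, with an interval from 217 to 220, in SJMHE1. The SJMHE1 library was the higher one by 1.60-fold, and the intervals were far apart. The log2 ratio of 0.68 (interval 0.67 to 0.69) rested on 60927 and 103310 counts. In the order from the highest ratio, Cr2 was at place 571 of 12433. Among the 4389 genes with a mean FPKM of at least 10, where ratios spread less, 59 genes or 1.34% had a ratio at least as high as that of Cr2, and 2.69% had a ratio above 0.5. None of the 7435 windows of 50 bases in the coding transcripts of Cr2 occurred in a transcript of another gene.

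CD21 acts on the B cell in a coreceptor complex that holds the tetraspanin CD81 and lowers the amount of antigen needed for activation. Of the 8 genes listed for this complex and its signaling, 0 passed a log2 ratio of 1, and their median ratio was 0.13. Cd81 had an FPKM of 34.9 in PBS and 39.0 in SJMHE1, a log2 ratio of 0.16. Among the other genes, Ifitm2 had the highest ratio, 0.51, and Pik3cd, a catalytic subunit of PI3K, the lowest, -0.22, while the kinase gene Lyn was at 0.11. Vav1 was level, at an FPKM of 54.3 in PBS and 54.2 in SJMHE1. Cr1l, the complement regulator gene related to Cr2, was lower in the SJMHE1 library, with an FPKM of 9.66 against 10.7 and a ratio of -0.15.

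S1pr3 (ENSMUSG00000067586), on chromosome 13 (plus strand) from 51408639 to 51422797, encodes 1 of the receptors for sphingosine-1-phosphate that position marginal zone B cells. Its single annotated transcript has 2 exons. The FPKM was 10.2 (interval 9.76 to 10.6) in PBS and 15.3 (interval 14.8 to 15.8) in SJMHE1, from 2490 and 3962 counts. The SJMHE1 library was again the higher one, by 1.5-fold, with a log2 ratio of 0.59 and an interval from 0.52 to 0.66. Among genes with a mean FPKM of at least 10, 1.94% had a ratio at least as high. The antisense gene Gm32834, which shares 45 bases of exon with S1pr3, had only 8 and 22 counts.

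The other receptors of this family had ratios on both sides of 0. S1pr1, the receptor that draws lymphocytes towards blood and acts beside S1pr3 in the marginal zone, was the most abundant of them and had an FPKM of 76.5 in PBS and 89.2 in SJMHE1, a log2 ratio of 0.22. S1pr4 had 20.3 and 19.7, a ratio of -0.04. S1pr2, which confines B cells to the germinal centre, was lower in the SJMHE1 library, with 0.63 against 1.56 and a ratio of -1.31 (interval -1.51 to -1.11). S1pr5 was below an FPKM of 1 in both libraries, at 0.55 and 0.49.

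Over the 20 genes listed for retention in the marginal zone and migration, 19 were compared, of which 0 were higher and 1, S1pr2, was lower by more than a log2 ratio of 1, with a median of -0.06. The most abundant of them were Arhgef1 and Gnai2, which carry signals from such receptors, with ratios of -0.08 and -0.22, and Ccr7, the receptor that leads lymphocytes to the T cell zone, whose FPKM was 142 in PBS and 80.5 in SJMHE1, a ratio of -0.82. The highest ratio in the list was that of S1pr1.

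Tm6sf1 (ENSMUSG00000038623), which encodes a transmembrane protein of lysosomes, lies on chromosome 7 (plus strand) from 81859001 to 81884434. Its FPKM was 17.4 (interval 16.9 to 17.8) in PBS and 23.9 (interval 23.3 to 24.4) in SJMHE1, so that the SJMHE1 library was the higher one. The log2 ratio was 0.46, with an interval from 0.41 to 0.51. This gene is less certain than the other members. Its exons share 1220 bases, 20.6% of all its exon bases, with Hdgfl3 on the opposite strand, and 42.1% of the windows of 50 bases in its coding transcripts also occur in transcripts of other genes. Whether the counting used strand is not given in the sources used here, so reads of the pair cannot be told apart. Hdgfl3 itself had 1491 and 1499 counts, and Tm6sf1 had 2568 counts more in the SJMHE1 library than in the PBS library. The related gene Tm6sf2 was low, at 0.27 and 0.45.

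Notch2 (ENSMUSG00000027878), the receptor without which marginal zone B cells do not form, lies on chromosome 3 (plus strand) from 98013527 to 98150361, with a coding transcript of 34 exons. Its FPKM was 36.7 (interval 36.2 to 37.2) in PBS and 41.4 (interval 40.9 to 41.9) in SJMHE1. The levels were 1.13-fold apart, with a log2 ratio of 0.18 and an interval from 0.15 to 0.20, and 24.3% of all genes compared had a ratio at least as high. Notch1, the receptor used by T cell precursors, was far lower, at 3.12 and 2.82, a ratio of -0.15.

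Dtx1 (ENSMUSG00000029603), a ubiquitin ligase gene switched on by Notch signals, lies on chromosome 5 (minus strand) from 120680202 to 120711927. Its FPKM was 50.5 (interval 49.7 to 51.3) in PBS and 50.2 (interval 49.4 to 51.0) in SJMHE1. This is a log2 ratio of -0.01 (interval -0.04 to 0.02), and Dtx1 was the 1 member whose interval included 0. The sign of so small a ratio followed the scaling of the libraries, being negative when counts were scaled by the library total and positive, at 0.07, when FPKM was rescaled to equal sums.

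Asb2 (ENSMUSG00000021200), on chromosome 12 (minus strand) from 103321142 to 103356001, encodes a subunit that selects substrates for a ubiquitin ligase. Its FPKM was 3.53 in PBS and 4.09 in SJMHE1, a log2 ratio of 0.21 (interval 0.07 to 0.36). The FPKM intervals of the libraries, 3.27 to 3.80 and 3.82 to 4.38, only just missed each other.

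In the remainder of the Notch pathway, 33 genes were listed and 25 were compared. None passed a log2 ratio of 1 in either direction, 11 were higher and 14 were lower, and the median ratio was -0.02, against -0.01 for all genes compared. The most abundant were the proteases Adam10 and Adam17, with ratios of 0.25 and 0.05, and the γ-secretase subunit gene Psenen, with -0.17. Adam10, which makes the first cut in Notch2, had an FPKM of 24.0 in PBS and 28.5 in SJMHE1. The ligand gene Dll1 had the highest ratio, 0.74, at the low levels of 1.83 and 3.05. The feedback inhibitor Nrarp, itself a Notch target, had the lowest, -0.63, at 1.78 and 1.15. Among other genes chosen after their values were seen, Rbpj had 2.21 and 1.73, a ratio of -0.35. Of the target genes also chosen later, Hes1 had 8.69 and 7.23, a ratio of -0.27. Hes5 had 1.86 and 1.93, a ratio of 0.05 (interval -0.29 to 0.39). The receptor gene Notch2 had a ratio of 0.18. Of the targets named here, Nrarp (interval -0.92 to -0.35) and Hes1 (interval -0.40 to -0.13) were lower beyond counting error. The intervals of Dtx1 and Hes5 included 0.

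Cd1d1 (ENSMUSG00000028076), on chromosome 3 (minus strand) from 86995834 to 86999309, encodes CD1d. Its FPKM was 15.0 (interval 14.3 to 15.6) in PBS and 16.4 (interval 15.8 to 17.1) in SJMHE1. The SJMHE1 library was higher by 1.10-fold, a log2 ratio of 0.14 (interval 0.05 to 0.22). Its copy Cd1d2 shares 25.1% of the windows of 50 bases in the coding transcripts of Cd1d1, so the counting could have split reads between them. Cd1d2 was low, with 1.12 and 1.42 and only 95 and 127 counts, beside 2111 and 2457 counts for Cd1d1. Cd5, the other surface marker by which IL-10-making CD1d-high B cells are often gated, was lower in the SJMHE1 library, with an FPKM of 0.74 against 1.94. T cells also express Cd5.

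Cd9 (ENSMUSG00000030342), on chromosome 6 (minus strand) from 125460266 to 125494791, encodes a tetraspanin found on marginal zone B cells, B-1 cells and plasma cells. Its FPKM was 5.72 (interval 5.29 to 6.18) in PBS and 4.50 (interval 4.13 to 4.90) in SJMHE1, the lowest ratio of the 9 genes. The log2 ratio was -0.35, with an interval from -0.51 to -0.18, on 643 and 535 counts. Of its exon bases, 10.7% lie in the antisense gene Gm26728, which had 3 counts in each library.

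Myof (ENSMUSG00000048612), on chromosome 19 (minus strand) from 37899036 to 38043577, encodes myoferlin, a protein of membrane repair. It was the least abundant member, with an FPKM of 1.36 in PBS and 1.22 in SJMHE1. The log2 ratio was -0.16, with an interval from -0.29 to -0.02, and the FPKM intervals of 1.27 to 1.45 and 1.14 to 1.30 overlapped.

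Over all relatives of the members, 28 genes were listed and 20 were compared, with a median ratio of 0.01 and S1pr2 alone past a log2 ratio of 1. The most abundant were the tetraspanin genes Cd37 and Cd53, related to Cd9, with ratios of -0.05 and 0.26, and S1pr1. The highest ratio was 0.44, for the Dtx1 relative Dtx3l.

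**Figure D2:**
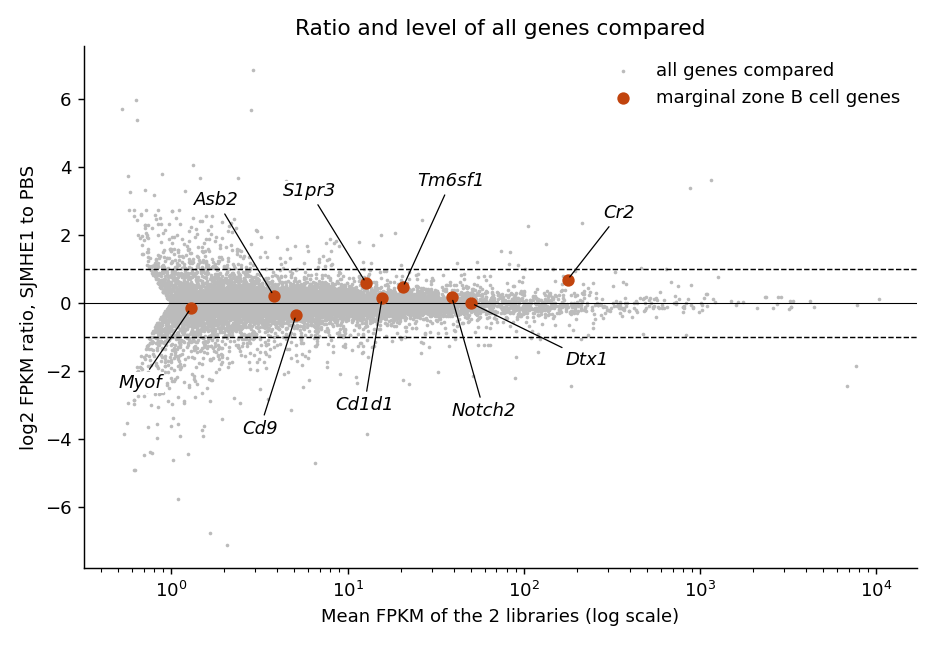
Log2 FPKM ratio of SJMHE1 to PBS against the mean FPKM of the libraries (log scale) for the 12433 genes compared (grey) and the 9 marginal zone B cell genes (orange, labelled), with dashed lines at a log2 ratio of 1 in each direction. All 9 points lie between the dashed lines, and Cr2, at 0.68, stands above most genes of its level, where ratios spread less than at low FPKM.

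Over the 9 genes, 6 were higher and 3 were lower in the SJMHE1 library, while 47.7% of all genes compared were higher and 51.9% were lower. Of the protein-coding genes, 48.4% were higher. The counting interval lay above 0 for 6 members and below 0 for 2. At this depth the intervals are narrow, and they lay above 0 for 31.0% and below 0 for 34.5% of all genes. The median ratio of the members was 0.18, against -0.01 over all genes compared, and 0.16 without Cr2. Between the 5th and the 95th percentile, the ratios of all genes ran from -0.82 to 0.64, a range that held all members except Cr2. For protein-coding genes it ran from -0.58 to 0.46 and held neither Cr2 nor S1pr3.

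The members were next set against general B cell genes in the same library, since such a ratio does not depend on how the libraries are scaled. Of the 10 B cell identity genes, Cd79a and Cd79b, which encode the signaling chains of the B cell receptor, had ratios of 0.00 and -0.07, Ms4a1, which encodes CD20, had the highest, 0.20, and Ebf1 had the lowest, -0.14. Their median was 0.01 and 0 of them passed a log2 ratio of 1. These defining markers were abundant, with an FPKM of 835 for Cd79a in both libraries. Cr2, S1pr3, Tm6sf1 and Asb2 were higher against each of the 10 genes, with log2 changes from 0.48 to 0.82 for Cr2, from 0.39 to 0.73 for S1pr3, from 0.26 to 0.60 for Tm6sf1 and from 0.02 to 0.36 for Asb2. Notch2 was higher against 8 of 10, Cd1d1 against 7 and Dtx1 against 4. Cd9 and Myof were lower against all 10 genes. Being higher against all 10 needs only a ratio above that of Ms4a1. Of all genes compared, 20.9% had a ratio at least as high as Asb2, and 70.0% at least as high as Myof. The counting interval of Asb2 held the ratio of Ms4a1, and that of Myof held the ratio of Ebf1. The order within these pairs is therefore within counting error.

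**Figure D3:**
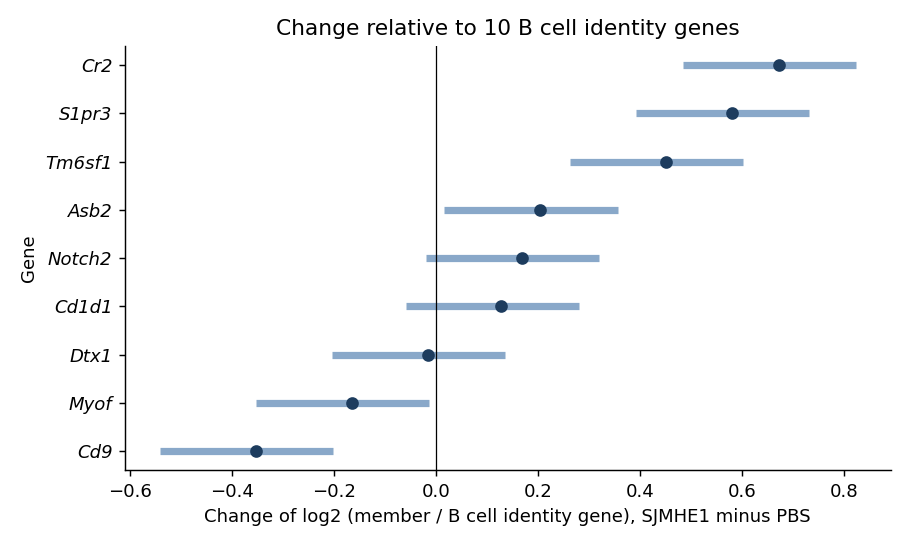
Change, SJMHE1 minus PBS, of the log2 ratio of each member to each of 10 B cell identity genes, with the line spanning the lowest to the highest of the 10 changes and the point at their median. The lines of Cr2, S1pr3, Tm6sf1 and Asb2 lie wholly to the right of 0, those of Notch2, Cd1d1 and Dtx1 cross 0, and those of Myof and Cd9 lie to its left.

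A further 9 genes listed as marks of marginal zone B cells had a median ratio of -0.03, with 4 higher, 5 lower and 0 past a log2 ratio of 1. Tnfrsf13b, which encodes the BAFF and APRIL receptor TACI, was the most abundant and had an FPKM of 65.6 in PBS and 66.5 in SJMHE1, a ratio of 0.02. Zc3h12c had the highest ratio, 0.40, at 4.26 and 5.61. Ahnak had the lowest, -0.82, at 27.6 and 15.6. Cd36, at 13.4 and 13.5, and the Fc receptor-like gene Fcrl5, at 14.8 and 13.1, were chosen after their values were seen, since both mark these cells, and had ratios of 0.01 and -0.18. The higher values of Cr2, S1pr3 and Tm6sf1 were not shared by all marks of the subset.

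Genes of the other splenic B cell subsets are given beside them. Of the 10 follicular B cell genes, 0 passed a log2 ratio of 1 and the median was 0.00. Fcer2a, which encodes CD23 and is low in marginal zone B cells, had an FPKM of 262 in PBS and 260 in SJMHE1, a ratio of -0.01. The abundant Ighd and Klf2 had ratios of 0.11 and -0.01, Satb1 had the highest, 0.18, and Ccr7 the lowest. Of the 6 transitional B cell genes, 4 were compared, with a median of 0.01, a highest ratio of 0.17 for Spib and a lowest of -0.10 for Cd24a, and Vpreb3 at 0.08. All 6 B-1 cell genes were lower in the SJMHE1 library, with a median of -0.81. Of these, Cd5 and Ctla4 were past a log2 ratio of 1, with -1.39 and -1.47, and both are also expressed by T cells. The transcriptional repressor Zbtb32 had a ratio of -0.82, and Plscr1 and Spn had -0.17 and -0.03. Bhlhe41, chosen after its values were seen, had a ratio of -0.79 (interval -0.88 to -0.70).

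**Figure D4:**
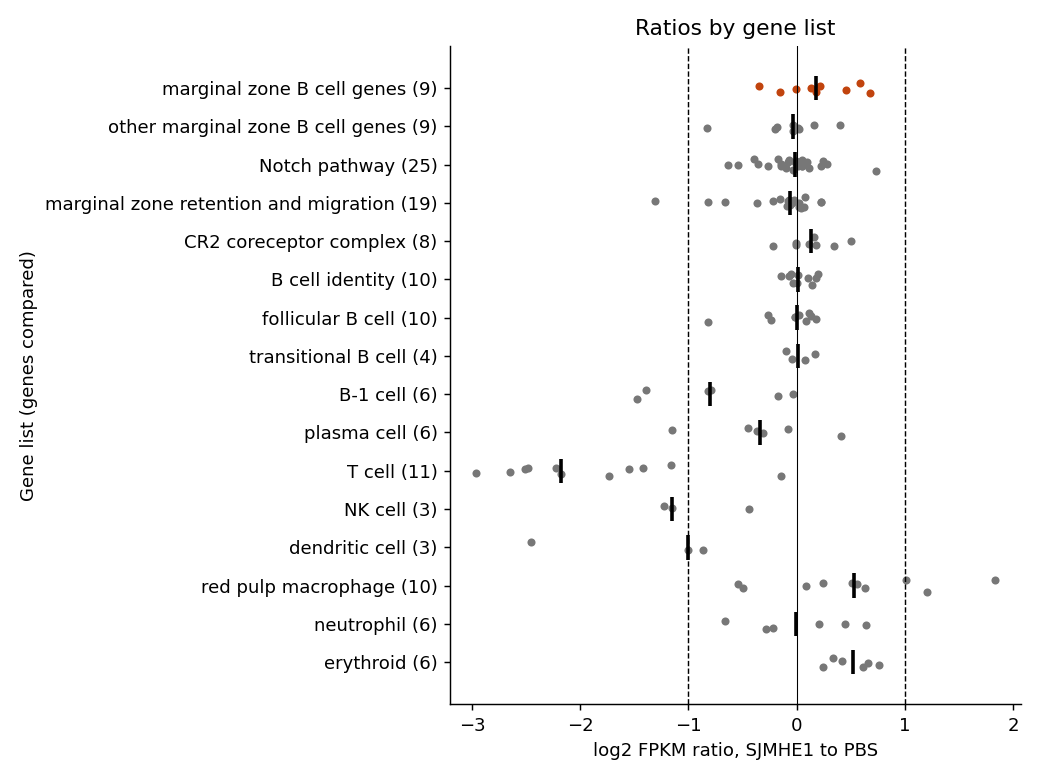
Log2 FPKM ratio of SJMHE1 to PBS for each gene compared in 16 lists, with the number of genes in brackets, a black bar at the list's median and dashed lines at a log2 ratio of 1 in each direction. The marginal zone B cell genes (orange, median 0.18) and the other B cell and Notch lists lie within the dashed lines but for S1pr2 and the B-1 genes Cd5 and Ctla4, the plasma cell gene Tnfrsf17 is also outside them, and the T cell genes other than Lck lie far to the left.

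Markers of other cells also differed between the libraries, and their part in the values of the members was not tested. All 11 T cell genes were lower in the SJMHE1 library, 10 of them past a log2 ratio of 1, and their summed FPKM was 60.0 in PBS and 33.6 in SJMHE1. The 10 were Cd8b1, Il7r, Cd28, Trac, Cd8a, Cd3e, Cd4, Cd3d, Cd3g and Lat, with ratios from -2.96 to -1.17, while Lck had -0.15. Lck alone gave 27.9 of the PBS sum and 25.2 of the SJMHE1 sum, so the sums understate how far the other T cell genes differed. Of the NK cell genes, 2 of 3 compared were lower past that fold, namely Ncr1 and Gzma, with Prf1 at -0.45, and the sum of all 6 was 11.2 and 5.71. Of the dendritic cell genes, 2 of 3 compared were lower past it, Siglech and Itgax, with Flt3 at -0.87, and the sum of all 7 was 8.0 and 3.84. Of the red pulp macrophage genes, 3 of 10 compared were higher past it, Cd5l, C1qc and C1qb, while Hmox1, Csf1r and Adgre1 had 0.24, -0.50 and -0.55, and the sum of all 11 was 25.1 and 30.8. Of the plasma cell genes, Tnfrsf17 was lower past it, Jchain, Irf4 and Xbp1 had -0.31, -0.37 and 0.41, and the sum was 559 and 459. The 6 erythroid genes were all higher, with none past that fold, ratios of 0.24 for Hba-a1, 0.34 for Hbb-bs and 0.42 for Hba-a2, and sums of 147 and 193. Of the 6 neutrophil genes 3 were higher and 3 lower, with none past it, ratios of 0.44 for S100a9, 0.64 for S100a8, -0.28 for Camp and -0.66 for Retnlg, and sums of 316 and 418.

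Marker genes of splenic cells that share members or the niche with marginal zone B cells were low, Pecam1 apart. Follicular dendritic cells carry much CD21. Of 7 genes listed for these and other stromal cells, 6 were analysed, and Fdcsp was not among them. The 6 summed to an FPKM of 0.16 in PBS and 0.30 in SJMHE1, with Pdpn and Ccl19 listed at 0 in both. Cxcl13 had 0.06 in PBS and 0.28 in SJMHE1, on 4 and 19 counts. The 5 genes of marginal zone and metallophilic macrophages summed to 0.75 and 0.57, with Cd209b listed at 0 in both. The 6 genes of platelets and megakaryocytes, which carry CD9, summed to 1.15 and 1.17, with Treml1 listed at 0. Of the 6 endothelial genes, Pecam1, which B cells also express, had 38.0 and 37.1, and the other genes had at most 0.33, with Emcn listed at 0. The FPKM was 136 and 218 for Cr2 and 5.72 and 4.50 for Cd9. The marker sums do not measure how much Cr2 or Cd9 RNA such cells brought, and this was not tested.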

How the data were processed

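RNA of sorted spleen B cells was sequenced by LC-BIO, with the samples of 3 mice mixed for each of the 3 groups. The authors deposited raw read counts for each gene. Beside them the authors deposited FPKM, scaled by gene length and library size, with 2 decimals. The submitters' processing notes name bcl2fastq 2.0, HISAT2, StringTie, DESeq2, limma and the build mm10, without their roles. Value columns were assigned by name, and 2 columns whose name matched no sample were not used, so the planned comparisons with the Control group were not made.

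The log2 ratio of FPKM, SJMHE1 to PBS, was taken without a pseudocount over genes above 0 in both libraries whose higher FPKM was 1 or more. Count models need replicates and could not be fitted. Members, lists and settings were chosen with earlier results of these data known. Genes named are the members, related genes of their families and, from each list, those past the fold, the 3 most abundant and the highest and lowest. Others are said to be chosen later, and some genes are not reported here. Alternatives were pseudocounts of 0.1 and 1, other scalings, filters and a log2 ratio of 0.5. Depth was 48267168 and 51280237 counts, and a count of 0 allows up to 3 counts. The ratio and interval calculations were tested on simulated data. Exon overlaps and shared windows used GENCODE M21. Python 3.11.15, numpy 2.4.6, pandas 2.3.3, scipy 1.17.1, matplotlib 3.10.9, R 4.3.3, edgeR 4.0.16 for TMM and DESeq2 1.42.0 for size factors were used.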

Additional observations from a re-analysis of the deposited data

How the results depend on the processing

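No paired analysis was possible because both groups consist of a single library, which allows no test. Alternatives for comparisons with the Control group were not run. Under 7 alternative measures, scalings and pseudocounts, 8 of the 9 members kept the sign of their ratio, and Dtx1, near 0, did so in 3. Of these 63 values, 54 stayed inside the counting interval and 9 left it, all upwards. Cr2 ranged from 0.67 to 0.76, S1pr3 from 0.54 to 0.67 and Cd9 from -0.35 to -0.26. The members' median was 0.26 with FPKM rescaled to equal sums, which adds 0.083 to every ratio by construction, and 0.22 with DESeq2 size factors. It was 0.16 without Cr2, a setting added after the data were examined.

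No member passed a log2 ratio of 1 in either direction under any alternative. With 0.5 as the threshold 2 were higher in the main scaling. Tm6sf1 also lay above 0.5 with FPKM rescaled to equal sums, at 0.541, and with DESeq2 size factors, at 0.504. Of 12433 genes, 302 were higher and 444 lower. A pseudocount of 1 gave 100 and 146. Dropping the filter gave 1367 and 2018 of 20426 genes, and requiring an FPKM of 1 or more in each library gave 101 and 151 of 11366. The numbers were 905 and 1221 at 0.5, and 89 and 171 of the 9900 protein-coding genes. The shares of protein-coding genes past 0.5 or 0 were a later addition, made with the data already seen. The filters change the genes compared by construction. Depth limits Cd9, Asb2 and Myof most, with 535 to 949 counts in a library.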

Other observations

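Several small genes lie within the members' loci. Gm42820, on the same strand as Notch2 and sharing 541 bases of exon with it, had an FPKM of 1.21 in PBS and 0.70 in SJMHE1, a log2 ratio of -0.79 (interval -1.12 to -0.46), while Notch2 itself had a ratio of 0.18. Gm45867, on the strand of Tm6sf1, had 2.43 and 2.88, a ratio of 0.25 (interval 0.03 to 0.47). The antisense gene Gm32834 at S1pr3 had 0.18 and 0.51 on 8 and 22 counts, a ratio of 1.5 (interval 0.28 to 2.88). Gm15523, opposite to Asb2, had 13 and 7 counts. All of them were looked at after their values were seen.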
